A study of Mus musculus with 18 samples.

Results

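This account follows 10 genes that hold back the cell cycle or answer to the tumour suppressor p53 in mouse CD4+ T cells: the cyclin-dependent kinase (CDK) inhibitors Cdkn1a, Cdkn1b, Cdkn2c and Cdkn2d, the p53 gene Trp53, and Mdm2, Ccng1, Ccng2, Gadd45a and Gadd45b. The genes were taken by symbol. Of the 10, 9 had at least 1 probe set assigned to them alone in the array annotation used, and Trp53 was not analysed here for want of one. The 9 genes have 17 such probe sets between them and are among 12393 genes with such a probe set and 6873 genes that were tested. Helper T cells of mice 6 to 8 weeks old were taken by negative selection and measured on 18 arrays of the Affymetrix Mouse Genome 430A 2.0 type, 3 in each of 6 groups. Wild-type (WT) cells and cells lacking ERRα (ERRa-/-, called KO here), the product of Esrra, a nuclear receptor without a known natural ligand that drives mitochondrial genes, were harvested directly after isolation (resting) or after 12 h with 10 µg of antibodies to CD3 and CD28 (stimulated). WT cells also received 1 of 2 ERRα inhibitors, XCT790 or compound A, each at 20 µM. The protocol places the inhibitors in stimulated cultures while the sample labels of those 6 arrays read unstimulated, so both inhibitor groups were set against stimulated and against resting WT cells. The KO removes Esrra in the whole animal as far as the labels say, and the inhibitor groups have no array of the inhibitor's solvent identified in the labels.

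CDK inhibitors bind CDKs and their cyclin partners. The Cip/Kip members Cdkn1a (p21) and Cdkn1b (p27) act on a broad range of cyclin and CDK complexes, and the INK4 members Cdkn2c (p18) and Cdkn2d (p19) bind CDK4 and CDK6. Resting T cells are held out of the cycle in part by p27, which is lost when the antigen receptor and CD28 are engaged. The transcription factor p53 switches on Cdkn1a, Mdm2, Ccng1 and Gadd45a after DNA damage, and Mdm2, a ubiquitin ligase, in turn marks p53 for destruction. FoxO factors, active in resting T cells and shut off by signalling through AKT, drive Cdkn1b and Ccng2, while Gadd45b, a stress-induced activator of p38 signalling in T cells, is a known NF-κB target.

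The values are log2 intensities of the GCRMA method, forced to the same distribution on every array, so a difference is relative to all other probe sets. Log2 4 serves as the floor for a measured level; 48.6% of the 22690 probe sets reach it. A gene's main probe set is that with the highest mean over the 18 arrays. All main probe sets of the 9 genes were tested, and 8 of them lay above the floor on all 18 arrays. Cdkn1a was the exception and lay above it on the 12 arrays that were not of resting cells. The labels describe the 3 arrays of a group as independent biological replicates. Differences carry the standard error (SE) of limma's moderated fit, and adjusted p-values are Benjamini-Hochberg values over the 6873 tested genes, with a call at an adjusted p under 0.05.

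Esrra itself was lower in KO than in WT cells, by 0.87 ± 0.11 (SE) on the log2 scale at rest (limma adjusted p = 2.16e-04) and by 0.92 ± 0.11 after stimulation (3.31e-04). Its mean level was 5.42 at rest and 5.37 after stimulation in WT cells, and 4.55 and 4.45 in KO cells. The KO values lie close to the floor of log2 4, so the full size of the loss and any remaining transcript cannot be read from them. A spike-in control for the 5′ end of the bacterial dap transcript separated the 6 untreated WT arrays (3.99 to 6.38, mean 5.11) from the other 12 arrays (7.45 to 8.51, mean 8.00), whereas its 3′ probe set did not (means 11.2 and 11.1). Every comparison of KO or inhibitor arrays with untreated WT arrays crosses this split, and the split and the group cannot be told apart there. T cell markers were high throughout, with group means over 8 of 9 listed genes of 11.37 to 12.62, while of the CD8 T cell markers Cd8a was at 2.24 to 2.25 and Cd8b1 at 5.81 to 7.32 in the 6 groups. Transcripts of other cell types were present, most of them higher at rest. The mean over 8 erythroid markers was 3.76 to 6.28 on resting WT arrays and 7.54 to 9.35 on resting KO arrays, that over 10 neutrophil markers 3.71 to 5.22 and 6.22 to 8.58, and that over 10 macrophage markers 7.13 to 8.08 and 7.53 to 9.29. In stimulated WT and both inhibitor groups all 8 erythroid markers and 9 or 10 of the 10 macrophage markers were under log2 4 on every array, and 8 or 9 of the 10 neutrophil markers were. In stimulated KO cells the neutrophil mean was 2.63 to 5.04, with 5 of 10 markers under log2 4 on every array. The mean over 7 B cell markers was 7.04 in resting WT and 6.34 in resting KO cells and 4.39 to 4.92 in the other 4 groups, where 3 or 4 of the 7 were under log2 4 on every array and Ms4a1 was at 8.52 to 9.81. In such bulk samples, fewer cells of a type and less RNA per cell cannot be told apart.

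**Figure D1:**
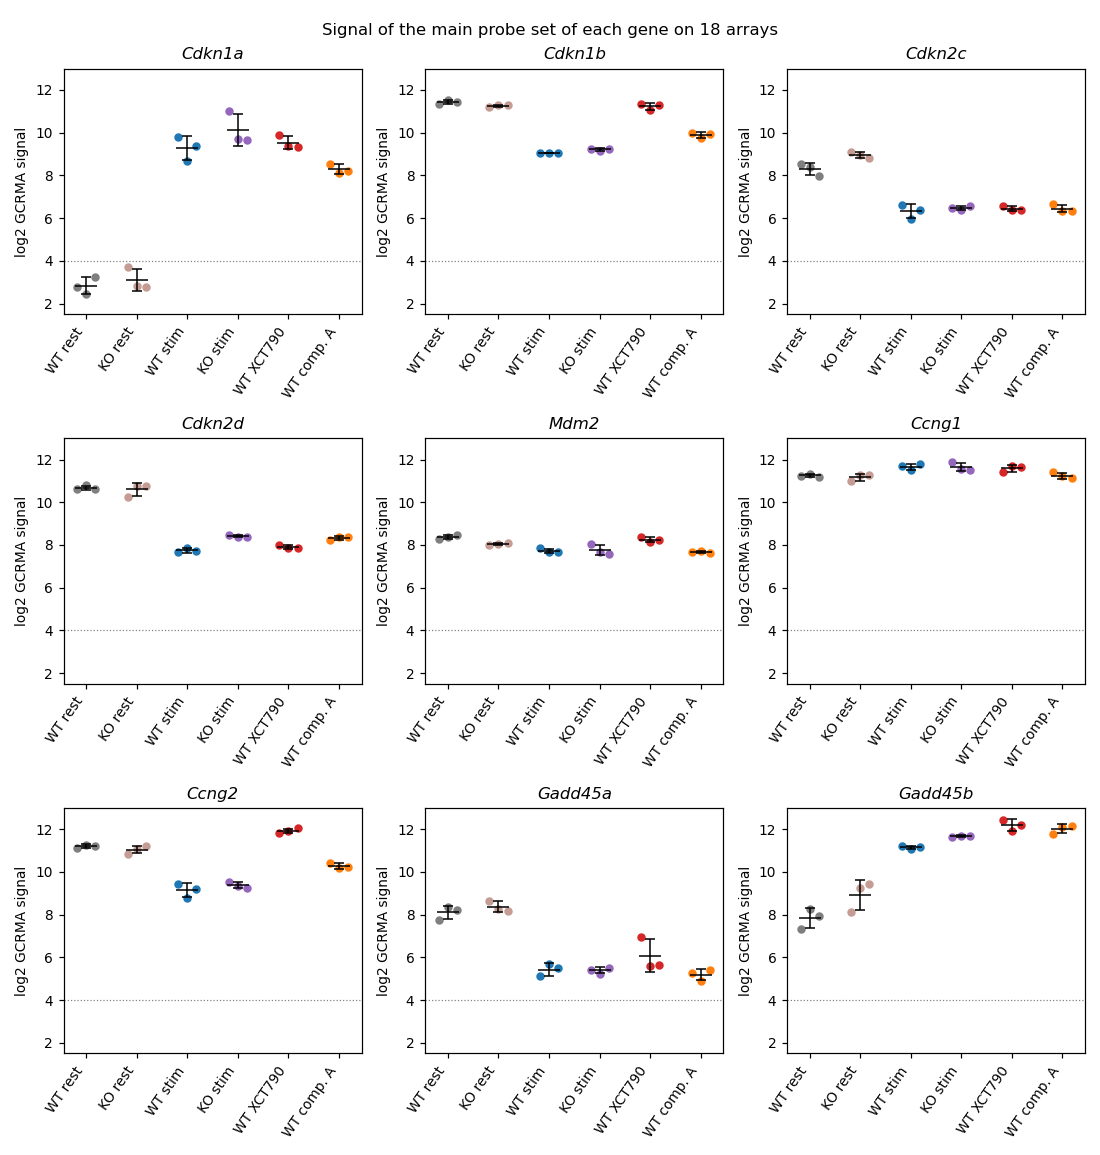
Log2 level of the main probe set (vertical axis) of each of the 9 measured genes in the 6 groups (horizontal axis). Points are single arrays, bars the mean and SD of 3 arrays, and the dotted line is log2 4. Cdkn1a and Gadd45b are low in the 2 resting groups and high in the 4 others, Cdkn1b and Ccng2 are low in stimulated cells and high at rest and under XCT790, and Cdkn2c, Cdkn2d and Gadd45a are high at rest alone.

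The promoter of Cdkn1a is shown because it is the only one of these genes with a pair of p53 half-sites in a window before an annotated transcription start. The searched motif was the consensus p53 half-site of 10 bases, matched exactly on either strand, and a pair allowed a spacer of up to 13 bases. Sequences are RefSeq's of the 250 bases before the start (GRCm38.p6), read on the gene's strand, with half-site matches in capitals. The 10 genes have 12 such windows, since some have more than 1 annotated start. A half-site stood in 7.13% of 32851 windows and in 6 of these 12, which belong to 6 of the genes. A pair stood in 0.0639% of windows and in 1 of the 12. In Cdkn1a the stretch with its flanks lies at chr17:29090896-29090947 on the plus strand, and its capitals run from 73 to 42 bases before the start. In Mdm2 it lies at chr10:117710925-117710954, in Ccng1 at chr11:40755452-40755481, in Gadd45a at chr6:67037428-67037457 and in Cdkn2d at chr9:21291292-21291321, all on the minus strand. Each of these 4 has a single half-site, and the sixth gene with a match, Trp53, is not shown because its level was not analysed.
Cdkn1a: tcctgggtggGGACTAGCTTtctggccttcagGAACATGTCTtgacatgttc
Mdm2: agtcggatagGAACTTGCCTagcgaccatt
Ccng1: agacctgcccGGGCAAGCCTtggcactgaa
Gadd45a: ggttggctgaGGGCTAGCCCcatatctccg
Cdkn2d: ggcctggggcGGGCTTGCCTcgcccactag
These matches are letters in a window and were not tested for binding. The members that hold one did not share a direction, since on stimulation the array signal of Cdkn1a and Ccng1 rose while that of Mdm2, Gadd45a and Cdkn2d fell. The FoxO motif GTAAACA, on either strand, stood in 3.17% of all windows and in 1 of the 12, of Mdm2. The E-box CACGTG stood in 6.02% and in 1 of the 12, of Gadd45b.

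Cdkn1a, the p53-driven inhibitor p21, was under the floor at rest and well above it on every other array. Resting WT arrays read 2.80, 2.47 and 3.26 and resting KO arrays 3.70, 2.80 and 2.79. After stimulation the WT arrays read 9.80, 8.69 and 9.38 and the KO arrays 10.99, 9.68 and 9.68. Under XCT790 the values were 9.88, 9.36 and 9.35, and under compound A 8.55, 8.10 and 8.22. All 12 arrays of cells that were not resting stood far above all 6 resting arrays. The 3 compound A arrays lay below every stimulated array, and stimulated WT, XCT790 and stimulated KO arrays overlapped in turn. A further probe set for Cdkn1a was under the floor on the same 6 resting arrays and between 7.11 and 10.36 on the other 12.

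Cdkn1b, the p27 inhibitor that keeps T cells quiescent, ran the other way and stood near its resting level under XCT790. Its resting levels were 11.32, 11.52 and 11.43 in WT and 11.22, 11.28 and 11.30 in KO cells. Stimulated WT arrays read 9.05, 9.03 and 9.05 and stimulated KO arrays 9.26, 9.16 and 9.22. With XCT790 the arrays gave 11.35, 11.05 and 11.29, and with compound A 10.01, 9.76 and 9.93. Compound A arrays therefore stood between the stimulated and the resting arrays with no overlap on either side, and XCT790 arrays overlapped the resting arrays of both genotypes. The other Cdkn1b probe set was under the floor in most samples and reached it on the XCT790 arrays 2 and 3 (4.45 and 4.46) and 1 resting KO array (4.02).

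The INK4 inhibitors Cdkn2c and Cdkn2d both had lower levels in all stimulated and inhibitor arrays than in any resting array. For Cdkn2c, resting WT arrays read 8.53, 8.41 and 7.97 and resting KO arrays 9.11, 8.94 and 8.81. Stimulated arrays were at 6.62, 5.96 and 6.40 in WT and 6.46, 6.40 and 6.55 in KO cells, while XCT790 gave 6.57, 6.40 and 6.38 and compound A 6.64, 6.34 and 6.35. The 4 groups that were not resting overlapped one another, and the resting KO arrays all lay above the resting WT arrays. Cdkn2d read 10.63, 10.79 and 10.64 at rest in WT and 10.26, 10.78 and 10.77 in KO cells. Stimulated WT arrays fell to 7.65, 7.86 and 7.74, but stimulated KO arrays stayed at 8.48, 8.38 and 8.38. XCT790 arrays read 8.00, 7.86 and 7.84 and compound A arrays 8.24, 8.40 and 8.38. Stimulated KO and compound A arrays overlapped each other and lay above all stimulated WT and XCT790 arrays, which overlapped in turn.

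Mdm2, the ligase that limits p53, varied over a narrow range on its main probe set. Resting arrays were at 8.29, 8.39 and 8.47 in WT and 7.98, 8.05 and 8.09 in KO cells, and stimulated arrays at 7.84, 7.68 and 7.67 and at 8.04, 7.66 and 7.60. XCT790 arrays read 8.38, 8.12 and 8.25 and compound A arrays 7.66, 7.73 and 7.63. XCT790 overlapped resting WT cells, and stimulated WT, stimulated KO and compound A arrays overlapped one another. Its second probe set gave another picture: 6.27, 6.21 and 6.13 in resting WT and 6.23, 6.19 and 6.26 in stimulated WT cells, against 6.53, 6.96 and 7.10 in resting KO, 7.64, 7.23 and 6.86 in stimulated KO, 8.58, 8.10 and 7.95 under XCT790 and 7.40, 7.08 and 6.95 under compound A. On that probe set the 6 untreated WT arrays were the lowest of the 18 and did not overlap any other group, which is the same split as that of the dap 5′ control. The part of that split in this pattern was not tested.

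Ccng1, cyclin G1, a p53 target that recruits a phosphatase to Mdm2, was high on all arrays. Its main probe set read 11.24, 11.32 and 11.20 in resting WT, 10.98, 11.27 and 11.25 in resting KO, 11.72, 11.51 and 11.78 in stimulated WT and 11.87, 11.54 and 11.53 in stimulated KO cells. XCT790 arrays gave 11.41, 11.71 and 11.65 and compound A arrays 11.40, 11.21 and 11.12. Resting and stimulated arrays did not overlap within either genotype, and compound A arrays overlapped the resting ones. A second Ccng1 probe set spread wider, from 7.70 to 8.29 over the 6 resting arrays and from 9.80 to 10.42 over the other 12, with compound A at 10.21, 9.95 and 10.10. The third ran from 7.10 to 7.69 at rest and from 8.21 to 8.88 elsewhere. All 3 probe sets placed stimulated above resting cells, but only the main one put compound A at the resting level.

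**Figure D2:**
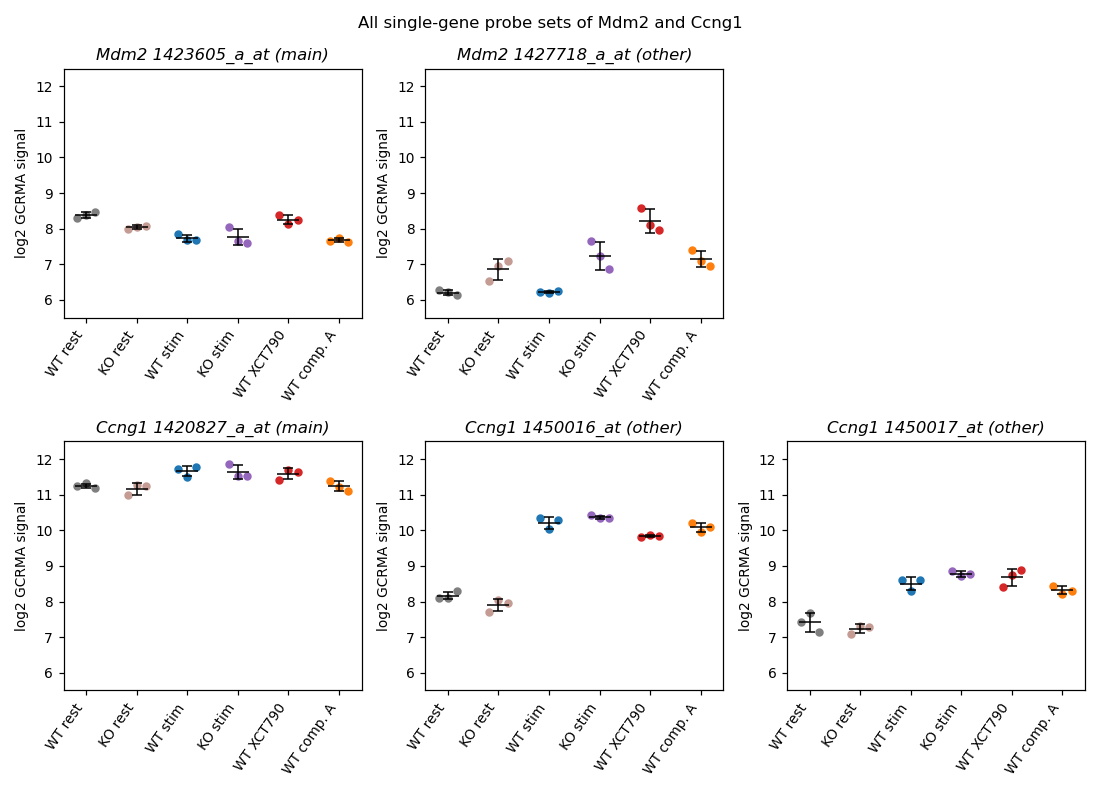
Log2 level (vertical axis) on each array of both Mdm2 probe sets and all 3 Ccng1 probe sets in the 6 groups (horizontal axis), with bars for mean and SD of 3 arrays. The second Mdm2 probe set is at 6.13 to 6.27 on the 6 untreated WT arrays and at 6.53 to 8.58 on the other 12, a pattern that the main Mdm2 probe set lacks.

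Ccng2, cyclin G2, a FoxO target that slows the cycle, was lowest in stimulated cells and highest under XCT790. Resting WT arrays read 11.10, 11.28 and 11.20 and resting KO arrays 10.86, 11.09 and 11.19. Stimulation left 9.42, 8.77 and 9.20 in WT and 9.54, 9.32 and 9.26 in KO cells. XCT790 arrays stood at 11.84, 11.90 and 12.04 and compound A arrays at 10.43, 10.16 and 10.21. XCT790 arrays were above every resting array, and compound A arrays lay between stimulated and resting arrays without touching either. Its second, dimmer probe set read 7.25, 7.48 and 7.19 under XCT790, with group means of 3.15 to 4.47 in the other 5 groups.

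The Gadd45 genes encode small stress sensors and moved in opposite directions. Gadd45a, a p53 target that acts at the G2 checkpoint, read 7.75, 8.34 and 8.22 in resting WT and 8.66, 8.27 and 8.17 in resting KO cells. Stimulated arrays were at 5.10, 5.70 and 5.48 in WT and 5.42, 5.24 and 5.51 in KO cells, with XCT790 at 6.96, 5.61 and 5.64 and compound A at 5.26, 4.91 and 5.39. Array 1 of XCT790 stood above the other arrays that were not of resting cells, and arrays 2 and 3 lay among the stimulated WT values. Gadd45b rose from 7.32, 8.24 and 7.96 in resting WT and 8.14, 9.23 and 9.45 in resting KO cells to 11.21, 11.08 and 11.16 and to 11.63, 11.70 and 11.68 after stimulation. XCT790 arrays read 12.45, 11.90 and 12.21 and compound A arrays 11.77, 12.12 and 12.15. Both inhibitor groups were above every stimulated array of either genotype and overlapped each other.

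The first comparison asks what stimulation did in each genotype. All 9 genes passed in WT cells, beside 75.4% of all tested genes, and all 9 in KO cells, beside 73.4%. Cdkn1a, Ccng1 and Gadd45b rose in both genotypes (37.0% of tested genes rose in WT and 37.7% in KO cells), and Cdkn1b, Cdkn2c, Cdkn2d, Mdm2, Ccng2 and Gadd45a fell in both (38.4% and 35.7%). The median log2 difference of the 9 genes was -1.98 in WT and -1.67 in KO cells, and that of all tested genes -0.01 and 0.01. Cdkn1a was at least 39.2-fold higher in stimulated than resting WT cells when the resting level is set at the floor (log2 difference 6.45 ± 0.37, limma adjusted p = 1.25e-09) and at least 69.4-fold higher in KO cells (7.02 ± 0.37, 7.00e-10). The inhibitor with the steepest loss in WT cells was Cdkn2d, 7.65-fold lower (-2.94 ± 0.12, 3.92e-11) and 4.57-fold lower in KO cells (-2.19 ± 0.12, 7.45e-10). Cdkn1b fell 5.20-fold in WT (-2.38 ± 0.08, 1.41e-11) and 4.14-fold in KO cells (-2.05 ± 0.08, 7.39e-11).

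Among the remaining genes, Cdkn2c fell 3.94-fold in WT and 5.59-fold in KO cells, Ccng2 4.18-fold and 3.18-fold, and Gadd45a 6.38-fold and 7.86-fold, all with limma adjusted p of 1.22e-06 or less. Gadd45b rose 9.90-fold in WT (3.31 ± 0.28, adjusted p = 7.56e-08) and 6.64-fold in KO cells (2.73 ± 0.28, 6.83e-07). The p53 feedback gene Mdm2 fell 1.57-fold in WT (4.66e-05) and 1.21-fold in KO cells (0.0284), but the WT call was lost with the mean of both its probe sets (-0.31, 0.0555). The KO call for Mdm2 was lost without resting KO array 2 (adjusted p = 0.0615) or 3 (0.0784) or stimulated KO array 2 (0.107) or 3 (0.141), and its second probe set differed by 0.03 in WT (0.908) and 0.38 in KO cells (0.101). Ccng1 rose 1.34-fold in WT (0.00544) and 1.39-fold in KO cells (0.00235) on its main probe set. The second Ccng1 probe set gave 4.15-fold in WT and 5.54-fold in KO cells, and the third 2.11-fold and 2.91-fold. Over the same step 5 of 8 T cell markers fell in WT cells, as did 8 of 9 tested macrophage, 6 of 7 erythroid, 3 of 8 neutrophil and 5 of 5 B cell markers. In KO cells 5 of 8 T cell markers fell and 1 rose, and 9 of 9 macrophage, 7 of 7 erythroid, 8 of 8 neutrophil and 5 of 5 B cell markers fell. Their part in these differences was not tested.

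**Figure D3:**
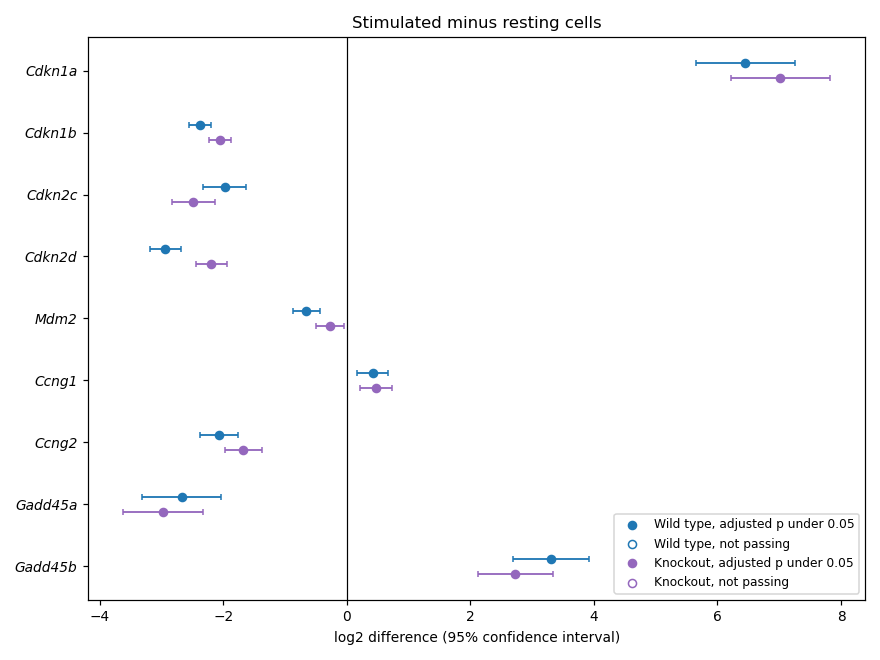
Log2 difference of stimulated minus resting cells (horizontal axis) for each of the 9 genes (vertical axis) in WT and KO cells, with 95% confidence intervals from limma. All 18 points pass an adjusted p of 0.05; 3 genes lie to the right of 0 and 6 to the left in both genotypes.

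Whether the response to stimulation differed by genotype was tested with the interaction term. It called 0 of the 9 genes by limma, beside 0.902% of all tested genes (0.48% with a higher and 0.422% with a lower response in KO cells). An unadjusted limma p under 0.05 was found for 4 (Cdkn1b, Cdkn2c, Cdkn2d and Mdm2). The share of all tested genes under that unadjusted threshold was not computed, so this count has nothing to be set against. Cdkn2d came nearest to a call, with a fall that was smaller in KO cells by 0.74 ± 0.17 on the log2 scale (95% interval 0.39 to 1.10, adjusted p = 0.0523). With the replicate number as a block its adjusted p was 0.0434, with the mean of each gene's probe sets 0.0490, with a trended and robust prior 0.0400, with array weights 0.00279, and without resting KO array 1, 2 or 3 it was 0.0229, 0.0297 or 0.0342. The other interaction terms were 0.33 for Cdkn1b (adjusted p = 0.179), 0.38 for Mdm2 (0.206), -0.51 for Cdkn2c (0.278), 0.39 for Ccng2 (0.339), -0.58 for Gadd45b (0.483) and 0.57 for Cdkn1a (0.604). For Ccng1 the term was 0.06 (95% interval -0.30 to 0.42) and for Gadd45a -0.30 (-1.21 to 0.60). The term also called 2 of 7 erythroid markers, both lower, and their part was not tested.

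KO and WT cells were then compared within each state. In resting cells 3 of 9 genes passed, beside 19.0% of all tested genes: Cdkn2c and Gadd45b were higher in KO cells (6.74% of tested genes were) and Mdm2 was lower (12.3%). Cdkn2c was 1.57-fold higher (0.65 ± 0.16, limma adjusted p = 0.0153), and the call was lost without resting WT array 3 (0.0744) or resting KO array 1 (0.0560). Gadd45b was 2.14-fold higher (1.10 ± 0.28, 0.0181) on its main probe set, but by 0.09 (0.882) and -0.17 (0.630) on its other probe sets, and the main call was lost without resting WT array 1 (0.0636) or resting KO array 3 (0.0581). Mdm2 was 1.27-fold lower (-0.34 ± 0.10, 0.0350) on the main probe set and 1.58-fold higher (0.66 ± 0.20, 0.0324) on the second one, and the main call was lost without resting WT array 2 (0.0878) or 3 (0.123) or resting KO array 1 (0.0980) or 2 (0.0537). When the 6 arrays were fitted alone, 0 of the 9 passed by limma. In the same comparison 7 of 7 tested erythroid and 6 of 8 neutrophil markers were higher in KO cells, 2 of 5 B cell markers were lower, and none of 9 macrophage markers passed; their part in these differences was not tested. The median log2 difference of the 9 genes was -0.08 and that of all tested genes -0.11.

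In stimulated cells 1 of 9 genes passed, beside 2.18% of all tested genes (1.59% higher). Cdkn2d was 1.58-fold higher in KO cells (0.66 ± 0.12, limma adjusted p = 0.00743), and all 3 KO arrays lay above all 3 WT arrays. Cdkn1a differed by 0.83 ± 0.37 (95% interval 0.03 to 1.63, 0.306) and Gadd45b by 0.52 ± 0.28 (-0.09 to 1.13, 0.404), neither of which passed. Gadd45b passed when the 6 arrays were fitted alone (0.0213) and with array weights (0.00782). For Cdkn1b the difference was 0.17 (-0.01 to 0.35) and for Ccng2 0.24 (-0.06 to 0.55). The second Mdm2 probe set was 2.02-fold higher in KO cells (1.02 ± 0.20, 0.00701), while the main one differed by 0.04 (-0.19 to 0.26). The erythroid, neutrophil, macrophage and B cell markers gave no call in this comparison. The median log2 difference of the 9 genes was 0.17 and that of all tested genes -0.06.

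Against stimulated WT cells, 4 of 9 genes were higher under XCT790 and none was lower. Of all tested genes 66.0% were called (29.1% higher and 36.9% lower). The comparison has no solvent array and crosses the dap 5′ split given above. Ccng2 was 6.94-fold higher (2.80 ± 0.14, limma adjusted p = 2.34e-09) and Cdkn1b 4.54-fold higher (2.18 ± 0.08, 1.37e-10). Gadd45b was 2.05-fold higher (1.04 ± 0.28, 0.00505), with 1.06 (0.0162) and 0.53 (0.0579) on its other probe sets. Mdm2 was 1.44-fold higher (0.52 ± 0.10, 4.69e-04), or 3.96-fold on its second probe set (8.38e-07). Gadd45a differed by 0.64 ± 0.30 (0.0724), and passed without XCT790 array 2 (0.0267) or 3 (0.0331), array 1 being the high one of the group. The INK4 genes did not pass, with intervals of -0.23 to 0.47 for Cdkn2c and -0.10 to 0.40 for Cdkn2d. Nor did Cdkn1a (0.24, interval -0.56 to 1.04) or the main probe set of Ccng1 (-0.08, -0.34 to 0.17). The second Ccng1 probe set was lower under XCT790 by a log2 difference of -0.39 (limma adjusted p = 0.00413). The third had means of 8.68 under XCT790 and 8.50 in stimulated WT cells. The median of the 9 genes was 0.52, and that of all tested genes -0.06. T cell markers moved too, with 4 of 8 lower and 1 higher, as did 1 of 5 B cell markers, which was lower; their part was not tested.

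Compound A was set against the same stimulated WT arrays, with the same limits. Under it 4 genes were higher and 1 was lower, beside 33.2% of all tested genes called (14.5% higher and 18.7% lower). Ccng2 was 2.20-fold higher (1.14 ± 0.14, limma adjusted p = 6.65e-05), Cdkn1b 1.81-fold (0.85 ± 0.08, 8.69e-06) and Cdkn2d was higher by 0.59 ± 0.12 (0.00183). The Cdkn1b call was lost with the mean of its probe sets (0.43, 0.0615), as the second one, under the floor in both groups, differed by 0.014 (0.995). Gadd45b was 1.82-fold higher (0.87 ± 0.28, 0.0310), a call lost without stimulated WT array 1 (0.0613), 2 (0.0822) or 3 (0.0720) or compound A array 2 (0.0922) or 3 (0.0977), and its other probe sets differed by 0.44 (0.370) and -0.03 (0.956). Ccng1 was lower on its main probe set (-0.43 ± 0.12, 0.0129), lost without stimulated WT array 3 (0.0577) or compound A array 3 (0.0622), and its other probe sets differed by -0.13 (0.358) and -0.18 (0.373). Without either one of the last-named arrays 3 of the 9 genes passed. Cdkn1a was lower by 1.00 ± 0.37 and missed the threshold (0.0522), although the 3 arrays lay below all 3 stimulated WT arrays; it passed with the replicate block (0.00820), without stimulated WT array 2 (0.0279) and on its other probe set (-0.94, 0.0468). Mdm2 did not pass on the main probe set (-0.06, interval -0.28 to 0.17) but was 1.89-fold higher on the second one (0.00306). Cdkn2c (0.12, -0.23 to 0.47) and Gadd45a (-0.24, -0.88 to 0.40) did not pass. The median of the 9 genes was 0.12 and that of all tested genes -0.03. Of the T cell markers 2 of 8 were higher, and their part was not tested.

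**Figure D4:**
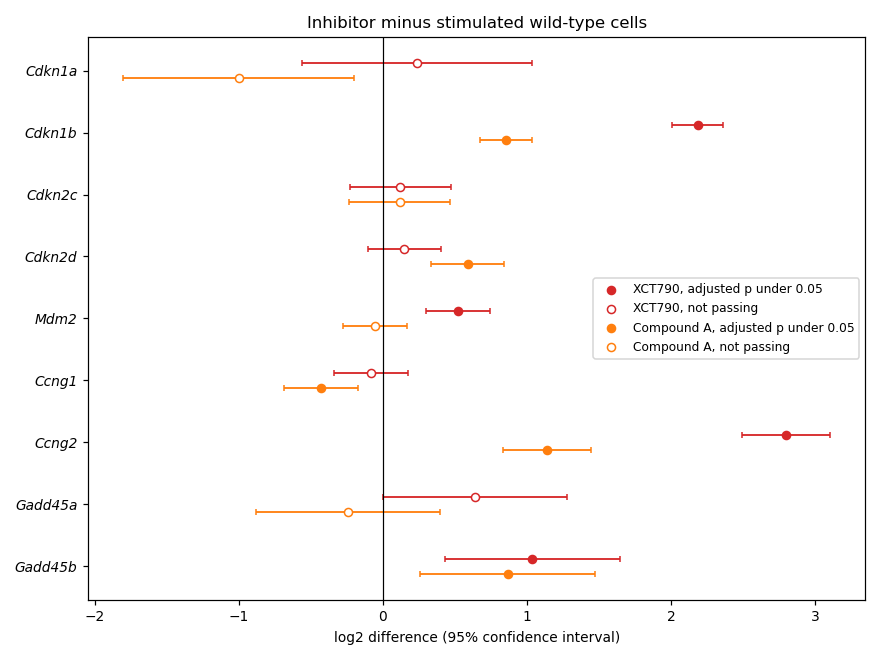
Log2 difference from stimulated WT cells (horizontal axis) of the XCT790 and compound A groups for each of the 9 genes (vertical axis), with 95% confidence intervals from limma; filled points pass an adjusted p of 0.05. Ccng2 and Cdkn1b are highest under XCT790 (2.80 and 2.18) and above 0 under compound A (1.14 and 0.85), while Cdkn2d is above 0 with compound A alone passing (0.59).

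The inhibitors were compared with each other directly, at the same dose and time, as 1 pair of compounds. Between them 7 of 9 genes differed, beside 52.6% of all tested genes: 6 were higher under XCT790 (24.8% of tested genes were) and 1 was lower (27.8%). Ccng2 was 3.16-fold higher (1.66 ± 0.14, limma adjusted p = 5.47e-07), Cdkn1b 2.51-fold (1.33 ± 0.08, 3.08e-08), Cdkn1a 2.36-fold (1.24 ± 0.37, 0.0118) and Mdm2 1.49-fold (0.58 ± 0.10, 3.24e-04) under XCT790. Cdkn2d was 1.36-fold lower (-0.44 ± 0.12, 0.00582). Gadd45a was 1.84-fold higher (0.88 ± 0.30, 0.0222), but by 0.44 (0.110) without XCT790 array 1, and not called without compound A array 2 (0.0857). The Cdkn1a call was lost without XCT790 array 1 (0.0527), and that of Ccng1 (0.35 ± 0.12, 0.0235) without XCT790 array 2 (0.0848) or 3 (0.0729) or compound A array 2 (0.0639) or 3 (0.0956). The second Ccng1 probe set was lower under XCT790 by a log2 difference of -0.26 and did not pass (0.0523), and the mean of all 3 gave 0.15 (0.248). For Cdkn2c the difference was 0.00 with a 95% interval of -0.35 to 0.35, and for Gadd45b 0.17 (-0.44 to 0.78). The median of the 9 genes was 0.58 and that of all tested genes -0.01. In this comparison 6 of 8 T cell and 1 of 5 B cell markers were lower under XCT790, and their part was not tested.

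Set against resting WT cells, each inhibitor group had 8 of 9 genes called, beside 71.9% of all tested genes for XCT790 and 69.7% for compound A. Under XCT790 4 genes were higher (33.6% of tested genes) and 4 lower (38.3%), and under compound A 2 were higher (32.6%) and 6 lower (37.1%). Cdkn1a was at least 46.2-fold higher than at rest under XCT790 and at least 19.6-fold under compound A, and Gadd45b was higher by 4.35 and 4.17 on the log2 scale. Cdkn2c was lower by 1.86 with either inhibitor, Cdkn2d by 2.79 and 2.35 and Gadd45a by 2.03 and 2.92 on the log2 scale. These 5 genes thus stood on the same side of the resting level as in stimulated cells without inhibitor, measured against the same resting arrays. Ccng2 was above its resting level with XCT790 (0.73 ± 0.14, limma adjusted p = 3.24e-04) and below it with compound A (-0.93 ± 0.14), a call lost with the mean of its probe sets (-0.30, 0.173). Cdkn1b was below it with compound A (-1.52 ± 0.08) and by 0.20 ± 0.08 with XCT790 (0.0490), a call lost without resting WT array 2 (0.171) or 3 (0.0963) or XCT790 array 2 (0.248) or 3 (0.0523) and with the replicate block (0.0502). On its main probe set Ccng1 was higher by 0.33 ± 0.12 with XCT790 (limma adjusted p = 0.0207). That call was lost without resting WT array 3 (0.0631) or XCT790 array 2 (0.0798) or 3 (0.0642). With compound A the main probe set differed by -0.01 (limma adjusted p = 0.924). The other Ccng1 probe sets were higher with both inhibitors. The second had means of 8.17 in resting WT cells, 9.83 with XCT790 and 10.09 with compound A, and the third 7.42, 8.68 and 8.32. Mdm2 was lower with compound A (-0.71 ± 0.10, 2.66e-05) and differed by -0.13 with XCT790 (0.272), while its second probe set was higher by 0.95 (7.10e-04) and 2.01 (4.03e-07). Of the markers, 6 of 8 T cell genes were lower with XCT790 and 5 with compound A, 1 was higher with each, and 8 of 9 macrophage, 6 of 7 erythroid, 3 of 8 neutrophil and 5 of 5 B cell markers were lower with either. Their part in these differences was not tested.

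Other p53 targets were called both higher and lower on stimulation of WT cells, at shares near those of all tested genes. Of 37 other p53 targets listed, 26 were tested; in stimulated against resting WT cells 10 rose and 11 fell, beside 37.0% and 38.4% of all tested genes, with a median log2 difference of 0.10. Sesn1, a stress-induced regulator of growth signalling, was 6.38-fold lower and Ddb2, a damage recognition factor, 4.04-fold lower, while Aen, an exonuclease gene, was 4.59-fold higher and Phlda3, an AKT inhibitor, at least 10.9-fold higher. In KO cells 14 rose and 8 fell on stimulation, beside 37.7% and 35.7%. Under XCT790, against stimulated WT cells, 14 rose and 7 fell (median 0.43, beside 29.1% and 36.9%): Sesn2 was 4.73-fold, the death gene Bbc3 3.98-fold and Trp53inp1 3.08-fold higher, and Pml 7.81-fold lower. Under compound A 5 rose and 6 fell (median 0.04, beside 14.5% and 18.7%), with Trp53inp1 1.75-fold higher and Phlda3 4.72-fold lower. In resting KO against WT cells none rose and 6 fell, Bbc3 1.86-fold, Zmat3 1.72-fold and Ddb2 1.52-fold, beside the 12.3% of all tested genes that were lower.

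Regulators of p53 were listed as 25 genes, of which 18 were tested. On stimulation of WT cells 4 rose and 7 fell (37.0% and 38.4% of all tested genes), and of KO cells 4 and 6 (37.7% and 35.7%), with Npm1, a nucleolar protein, 2.16-fold higher and Mdm4, the partner of Mdm2, 2.87-fold lower in WT cells. Under XCT790, against stimulated WT cells, 10 of them were higher and 3 lower (29.1% and 36.9% of all tested genes). Chek1, a checkpoint kinase, was at least 5.98-fold lower and Crebbp, an acetyltransferase, 1.67-fold higher. Under compound A 1 was higher and 2 were lower (14.5% and 18.7%). Among 9 other CDK inhibitors and Gadd45 partners 5 were tested. On stimulation 3 rose and 1 fell in WT cells (37.0% and 38.4% of all tested genes), with Gadd45g 3.09-fold higher. In KO cells 2 rose and 1 fell (37.7% and 35.7%). Against stimulated WT cells 1 was higher and 4 were lower under XCT790 (29.1% and 36.9%), and none was higher and 3 were lower under compound A (14.5% and 18.7%). Gadd45g was 3.75-fold lower under XCT790 and 2.40-fold lower under compound A, unlike Gadd45b, which was higher under both.

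FoxO factors and targets gave 14 tested genes of 19 listed, of which Sesn1 and Foxo3 are also among the p53 targets. In stimulated WT cells 1 rose and 12 fell (median -1.72), beside 38.4% of all tested genes that fell, and in KO cells 1 rose and 11 fell (median -1.32, beside 35.7%). Il7r, the interleukin 7 receptor, was 23.4-fold lower, Ddit4, an inhibitor of mTOR signalling, 13.2-fold and Txnip, a regulator of glucose uptake, 11.6-fold lower in WT cells. Under XCT790 9 rose and none fell (median 0.80, beside 29.1% of tested genes higher), with Ddit4 4.66-fold, Irs2 4.66-fold and Bcl2l11 2.93-fold above stimulated WT cells. Under compound A 5 rose and none fell (median 0.26, beside 14.5%), with S1pr1, a lymph node exit receptor, 4.04-fold and Klf2, its activator, 3.22-fold higher. Against resting WT cells 3 rose and 9 fell under XCT790 (median -1.40, beside 33.6% and 38.3%) and 1 rose and 9 fell under compound A (median -1.06, beside 32.6% and 37.1%). Il7r was then 18.2-fold, Txnip 10.1-fold and Sesn1 4.31-fold below its resting level with XCT790, and Bcl2l11 4.68-fold above it. The interaction called 1 of the 14, Sesn3 (0.74, limma adjusted p = 0.0385), beside 0.902% of all tested genes, and no gene of the other lists. An unadjusted limma p under 0.05 was found for 5 of the 14, without the share of all tested genes to set it against.

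Of 17 cyclins, kinases and Cdkn1b turnover factors, 14 were tested. In stimulated WT cells 6 rose and 3 fell (median 0.10, beside 37.0% and 38.4% of all tested genes), with Cdk4 2.30-fold higher and Ccnd3 2.74-fold lower. In stimulated KO cells 5 rose and 7 fell (median -0.66, beside 37.7% and 35.7%), with Ccna2 14.9-fold lower. The mean log2 level of Ccna2 went from 10.15 to 6.25 in KO cells and from 8.10 to 5.90 in WT cells. Erythroid and neutrophil markers, higher in resting KO than resting WT cells, fell in KO cells over this step too, and their part was not tested. The interaction called 0 of the 14 by limma, beside 0.902% of all tested genes. An unadjusted limma p under 0.05 was found for 6, again without the share of all tested genes to set it against. Under XCT790, against stimulated WT cells, 1 was higher and 9 were lower (median -0.72, beside 29.1% and 36.9%). Cdk4 was 2.55-fold, Ccnd2 1.54-fold and Cdk1 at least 3.05-fold lower. Under compound A none was higher and 3 were lower (14.5% and 18.7%), with Cdk4 1.51-fold lower. In resting KO against WT cells 4 rose and none fell (6.74% and 12.3%): Ccne2 5.96-fold, Ccna2 4.14-fold, Ccne1 3.06-fold and Cks1b 1.90-fold. The erythroid and neutrophil markers given above rose in that comparison too, and their part was not tested.

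For each of the 9 genes the most similar tested genes over the 18 arrays were taken by the root mean square difference of mean-centred log2 values. The nearest to Cdkn1b was Clk1 (0.210), to Ccng2 Crebrf (0.332), to Cdkn1a the chemokine gene Ccl4 (0.647), to Gadd45b Tnfrsf22 (0.535) and to Gadd45a St3gal6 (0.404). Cdkn2c lay nearest to Ctsd (0.210), Cdkn2d to Vim (0.282), Mdm2 to Brpf1 (0.116) and Ccng1 to Slc39a1 (0.0903). Second in order stood Tob1 for Cdkn1b (0.233), Pcmtd1 for Ccng2 (0.337), Bcat1 for Cdkn1a (0.676), Tnfsf8 for Gadd45b (0.563), Tsc22d1 for Gadd45a (0.404), Sgk3 for Cdkn2c (0.263), Gpr34 for Cdkn2d (0.282), Ppp1r15b for Mdm2 (0.126) and Ccdc115 for Ccng1 (0.125). No gene of the 9 was among the 2 nearest of another. Small values for Mdm2 and Ccng1 go with the narrow range of their levels. Some of the similar genes had group means under the floor of log2 4, where a level is not measured. Gpr34 was at 4.60 and 4.28 in resting WT and KO cells and at 2.05 in the other groups. At rest Tnfrsf22 (2.96 in WT and 2.73 in KO cells), Bcat1 (2.21 and 2.16) and Ccl4 (3.49 and 3.40) were under the floor.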

How the data were processed

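CD4+ T cell RNA was labelled with biotin and hybridised to 18 one-colour arrays; the values used are the deposited log2 intensities of the authors' value table, made with GCRMA per the submitters' processing notes (version not given in the sources used here). All 18 arrays have identical sorted values from 1.83 to 15.4. The platform annotation assigns 1 gene symbol to 20380 of the 22690 probe sets, and these were kept; 64 controls, 691 probe sets shared by several genes and 1555 unnamed ones were dropped. Per gene the probe set with the highest mean was used, and genes reaching log2 4 on at least 3 arrays were tested with limma 3.58.1 (R 4.3.3) on 6 group means (12 residual degrees of freedom), with Benjamini-Hochberg adjustment over 6873 genes. A fold is 2 to the log2 difference, and "at least" sets a group wholly under log2 4 at that floor. The script was tested on simulated data.

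The genes, lists and tests were chosen with earlier results of these data known. Genes named beyond the members are, per list and comparison, among the 4 called genes of smallest adjusted p, and per member the 2 most similar genes. Replicate numbers come from the sample titles: same-numbered arrays deviated together, with every correlation over 0.1, in KO stimulated against KO resting (0.336, 0.266, 0.238), in KO against WT cells at rest (0.645, 0.406, 0.254) and stimulated (0.442, 0.384, 0.148), and in XCT790 (0.253, 0.150, 0.172) and compound A (0.474, 0.398, 0.287) against stimulated WT, but not in the other comparisons. The same results were recomputed with a floor of log2 6, without a floor, with the mean of a gene's probe sets, each probe set alone (added after seeing the data), arrays shifted to a common median, a replicate block, a trended prior, array weights, the compared groups alone and each array left out. The number of arrays limits the precision.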

Additional observations from a re-analysis of the deposited data

Results flagged for a closer look

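Sesn3, a FoxO target among the listed genes, responded to stimulation differently in the 2 genotypes. Its mean log2 level went from 10.90 to 10.49 in WT cells and from 10.37 to 10.69 in KO cells. The difference between the responses was 0.74 (limma adjusted p = 0.0385, 3 arrays per group). It was the 1 call among 14 tested FoxO genes, beside 0.902% of all tested genes called by the interaction. At rest Sesn3 was lower in KO than in WT cells by a log2 difference of -0.54 (0.00484), and after stimulation it was not called between genotypes. In resting KO against resting WT cells 7 of 7 erythroid and 6 of 8 neutrophil markers were higher, beside 6.74% of all tested genes. Their part was not tested. The other settings and the arrays left out in turn were examined for the 9 genes alone, not for Sesn3.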

How the results depend on the processing

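Leaving out each array in turn, the count of genes called among the 9 was 9 throughout for stimulation of WT cells, 8 to 9 for that of KO cells, 0 to 1 for the interaction, 1 to 2 for KO against WT cells at rest, 1 throughout for the stimulated genotypes, 4 to 5 for XCT790 and 3 to 5 for compound A against stimulated WT cells and 5 to 7 between the inhibitors; against resting WT cells it was 6 to 8 for XCT790 and 8 throughout for compound A. The interaction called 1 gene with the mean of all probe sets, 1 with the replicate block, 1 with the trended prior and 3 with array weights. KO against WT cells at rest had 1 call with the mean of all probe sets and 0 with those groups fitted alone, and the stimulated genotypes had 2 with array weights and 2 when fitted alone. With the mean of all probe sets 8 of the 9 genes were called for stimulation of WT cells, 8 for that of KO cells and 4 for compound A against stimulated WT cells. Those 4 are not all genes of the main fit. The compound A calls of Cdkn1b (limma adjusted p = 0.0615), Gadd45b (0.268) and Ccng1 (0.0830) were lost, and Cdkn1a was among the genes gained (0.0419). The replicate block left 87 single-gene results on their side of the threshold and moved 3 across it (the interaction of Cdkn2d, compound A against stimulated WT cells for Cdkn1a and XCT790 against resting WT cells for Cdkn1b), which are given with the results. Some differences changed sign. With the mean of all probe sets they were 0.055 for Mdm2 in stimulated KO cells, -0.11 for Cdkn1b in the interaction, 0.19 for Cdkn1b and 0.16 for Mdm2 in resting KO cells, 0.14 for Ccng1 between the stimulated genotypes, 0.43 for Mdm2 under compound A, and, against resting WT cells, 0.80 for Cdkn1b and 0.94 for Mdm2 under XCT790 and 0.93 for Ccng1 and 0.12 for Mdm2 under compound A. Array weights gave -0.12 for Ccng1 in the interaction, 0.018 for Ccng1, -0.20 for Cdkn1a and 0.085 for Cdkn2d at rest between genotypes and -0.057 for Mdm2 in stimulated cells, and a common median gave 0.058 for Ccng1 under compound A against rest. Tested alone, the second Cdkn1b probe set gave 0.10 on stimulation of WT cells, -0.55 in the interaction, 0.53 and -0.012 between genotypes at rest and stimulated, and 1.79 and 0.11 for XCT790 and compound A against rest. The second Mdm2 probe set gave 0.028 and 0.38 on stimulation of WT and KO cells, 0.66 between resting genotypes, 0.92 for compound A against stimulated WT cells, and 2.01 and 0.95 for XCT790 and compound A against rest. The other Gadd45b probe sets gave 0.048 each in the interaction, and the dimmer one -0.17 and -0.12 between genotypes at rest and stimulated and -0.029 under compound A. The other Ccng1 probe sets gave 0.15 and 0.29 between stimulated genotypes, 0.18 (the third) under XCT790, -0.26 (the second) between the inhibitors and 1.92 and 0.90 for compound A against rest, and the dimmer Ccng2 probe set -0.0042 between stimulated genotypes and 0.32 for compound A against rest. Over the arrays left out in turn, signs changed within -0.053 to 0.12 (Ccng1, interaction), -0.13 to 0.0068 (Ccng1), -0.045 to 0.47 (Cdkn1a) and -0.17 to 0.089 (Cdkn2d) between resting genotypes; -0.036 to 0.29 (Cdkn2c), -0.20 to 0.098 (Gadd45a), -0.14 to 0.032 (Ccng1) and -0.10 to 0.12 (Mdm2) between stimulated ones; -0.062 to 0.49 (Cdkn1a), -0.062 to 0.27 (Cdkn2c) and -0.16 to 0.0065 (Ccng1) for XCT790; -0.065 to 0.26 (Cdkn2c) for compound A; -0.056 to 0.10 (Cdkn2c) between the inhibitors; and -0.093 to 0.049 (Ccng1) for compound A against rest. The cause of these changes was not tested. The 3 arrays per group and the lack of signal over background below log2 4 limit what can be seen for Cdkn1a at rest and for the dimmer probe sets of Cdkn1b, Ccng2 and Gadd45b.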
